A study of Mus musculus with 6 samples.

Results

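The glutathione peroxidases and peroxiredoxins are the thiol- and selenium-based enzymes that break down hydrogen peroxide and lipid hydroperoxides. They were examined at 2 ages in the choroid plexus, whose epithelium secretes the cerebrospinal fluid. The members were 10 genes chosen by name, the glutathione peroxidase genes Gpx1, Gpx3, Gpx4, Gpx7 and Gpx8 and the peroxiredoxin genes Prdx1, Prdx2, Prdx4, Prdx5 and Prdx6. A gene was measured here if at least 1 probe set of the array carried its symbol alone. Of the 10 genes, 7 met that rule, with 12 probe sets, among 18193 such genes on the array. Prdx1 was represented by 5 probe sets, all of which also carry the symbol Gm21399, and was not analysed. Prdx5 and Prdx6 had no probe set named for them alone in the annotation used here and were not analysed. The results therefore cover 5 of 5 listed glutathione peroxidases and 2 of 5 listed peroxiredoxins.

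The 6 samples were whole lateral ventricle choroid plexus from male mice of the outbred CD1 stock. There were 3 mice aged 18 months and 3 mice aged 2 months, with no other treatment or genotype in the labels. RNA of the paired plexuses of 1 mouse went on 1 array, without pooling of mice, and the question was how transcript levels differ between the ages. The arrays were Affymetrix expression arrays, and values are log2 intensities, on which 1 unit is a 2-fold difference. The level of 1 probe set was compared between mice and not read against the level of another, since probe sets differ in how brightly they bind.

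Glutathione peroxidases reduce peroxides at the expense of glutathione, which glutathione reductase then recycles. Gpx1, Gpx3 and Gpx4 carry selenocysteine at the active site, whereas Gpx7 and Gpx8 carry cysteine there and reside in the endoplasmic reticulum. Peroxiredoxins use a reactive cysteine that is restored mostly by thioredoxin, and cysteine oxidised too far can be rescued by sulfiredoxin. In whole tissue, fewer cells of a type and less RNA per cell cannot be told apart.

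The samples had the character of the tissue they are labelled as, with admixtures that varied between mice. All 10 measured choroid plexus epithelial markers lay above the highest bacterial control probe set (4.51). Here and below, bacterial controls are the 27 bacterial control probe sets not spiked into the hybridisation mix. The summed intensity of the epithelial markers was 69811 to 69815 at 18 months against 72383 to 75333 at 2 months. These sums did not overlap, while the mean log2 intensities of the markers did. Among these markers, Ttr, which encodes the thyroxine carrier transthyretin, had 14.30 ± 0.05 at 18 months and 14.47 ± 0.01 at 2 months (SD, n = 3 each). Kl, which encodes Klotho, had 12.50 ± 0.06 and 12.44 ± 0.12 at those ages (SD, n = 3 each). Neuron markers varied widely within each age. Snap25, a synaptic gene, had 10.43, 11.63 and 12.29 in 18-month mice against 11.10, 10.23 and 12.30 in 2-month mice, and the array richest in neuron markers was replicate 3 at either age. Over the 12681 genes bright enough to test, 0% passed an adjusted p of 0.05 in either direction by limma, and 0.0540 was the lowest adjusted p. Counting instead limma's unadjusted p under 0.05, 7.05% passed, 4.02% higher and 3.03% lower at 18 months.

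No glutathione peroxidase or peroxiredoxin passed the threshold. By limma, 0 of the 7 genes had an adjusted p under 0.05, where the background was 0%, and 1 gene, Gpx3, had an unadjusted p under 0.05, where the background was 7.05%. For 2 genes, Gpx3 and Gpx8, the ages were separate, in that their ranges over the mice did not overlap, which held for 13.3% of all genes tested. Gpx3 was the 1 gene with 18 months above, where the background was 7.06%, and Gpx8 the 1 gene with 18 months below, where it was 6.25%. Of the 7 differences, 3 were above 0 and 4 below, with a median of -0.08 on the log2 scale, against 50.4% above 0 and a median of 0.0032 over all genes tested. Without single mice that median lay between -0.19 and 0.04. It was above 0 without 18-month replicate 1 (0.0094) or replicate 3 (0.040) and without 2-month replicate 2 (0.0019).

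**Figure D1:**
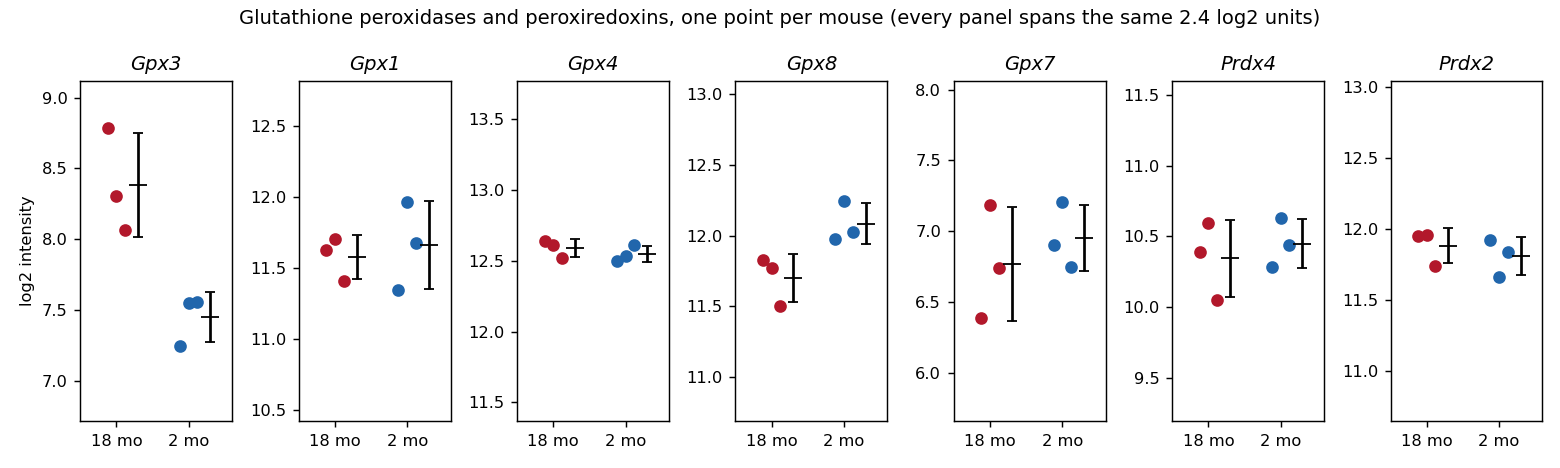
Log2 intensity of the 7 measured genes, 1 panel per gene and 1 point per mouse, with 18 months left of 2 months; the bar beside the points gives the mean and SD of 3 mice. The ages are separate for Gpx3 and for Gpx8 and overlap for the other genes.

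Gpx3, which encodes the secreted plasma glutathione peroxidase, had the largest difference of the 7. Its single probe set gave log2 intensities of 8.79, 8.30 and 8.07 at 18 months against 7.25, 7.55 and 7.56 at 2 months. On the deposited linear scale these were intensities of 441.3, 315.6 and 268.0 at 18 months against 151.7, 186.9 and 188.3 at 2 months. The lowest 18-month mouse therefore lay above the highest 2-month mouse, and the 18-month mice were spread over a wider range. The log2 difference was 0.93 (SE 0.23, 95% interval 0.373 to 1.497), a 1.91-fold higher level at 18 months with an interval of 1.30 to 2.82. It did not pass the threshold over all genes (limma, unadjusted p = 0.00596, adjusted p = 0.559). In order of p it stood 134th among all genes tested, and 4.23% of them had a larger absolute difference. The difference was between 0.73 and 1.15 in all 17 alternative settings. Changing the filter, averaging probe sets, blocking on replicate number or using the ordinary 2-sample test could not change this difference of 0.93. Over the alternatives, unadjusted p ran from 0.00417 to 0.0236 and adjusted p from 0.453 to 0.817 by limma or the ordinary 2-sample test. The lowest difference was found without 18-month replicate 1, the mouse with the highest Gpx3.

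Markers of other cells also differed between the ages in the same mice. The mean log2 intensities of pituitary and of macrophage markers were separate with 18 months above, as Gpx3 was. The mean log2 intensity of 7 pituitary markers was 6.49, 6.69 and 5.47 at 18 months against 4.39, 4.60 and 4.39 at 2 months, with no overlap. Their summed intensity was 869 to 2042 at 18 months against 279 to 383 at 2 months. Of the 7 markers, 3 (Tshb, Fshb and Cga) had a mean over all 6 arrays below the highest bacterial control. Another 3 were bright enough to test, and 2 of those were above 0. Among the untested markers, Prl averaged 6.29 at 18 months and 3.00 at 2 months, and Cga 5.44 and 3.18. Tshb averaged 4.22 and 3.78 at those ages, and Fshb 2.63 and 2.61. The growth hormone gene Gh led the pituitary markers, at 10.40, 10.18 and 9.08 in the 18-month mice against 4.65, 5.63 and 4.44 in the 2-month mice. Its 2-month mean of 4.91 lay under the level needed for testing (4.92), so Gh was tested only through its 18-month level. The 12 macrophage markers, of which 10 were above 0 and none lay below the bacterial control, averaged 8.06, 7.69 and 8.07 at 18 months against 7.24, 7.09 and 7.55 at 2 months. Their summed intensity was 4289 to 5801 at 18 months against 3019 to 5085 at 2 months, with overlap. Of the 12, 4 had separate ages with 18 months above, where the background was 7.06%. Tyrobp (-0.46) and C1qa (-0.21) were below 0. The part of pituitary or macrophage RNA in the Gpx3 difference was not tested. Oligodendrocyte markers, 7 of 8 of them above 0, averaged 7.70, 8.41 and 9.03 at 18 months against 7.91, 6.84 and 8.63 at 2 months, with overlap. The means of the astrocyte, stromal and endothelial lists overlapped between the ages as well. The stromal mean covered opposite differences, with 2 of the 7 tested above 0 and 5 below. Pdgfra differed by 1.95 (SE 0.22) and Dcn by -0.72 (SE 0.25), both with separate ages. With the neuron marker mean as a covariate, the Gpx3 difference was 0.94.

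**Figure D2:**
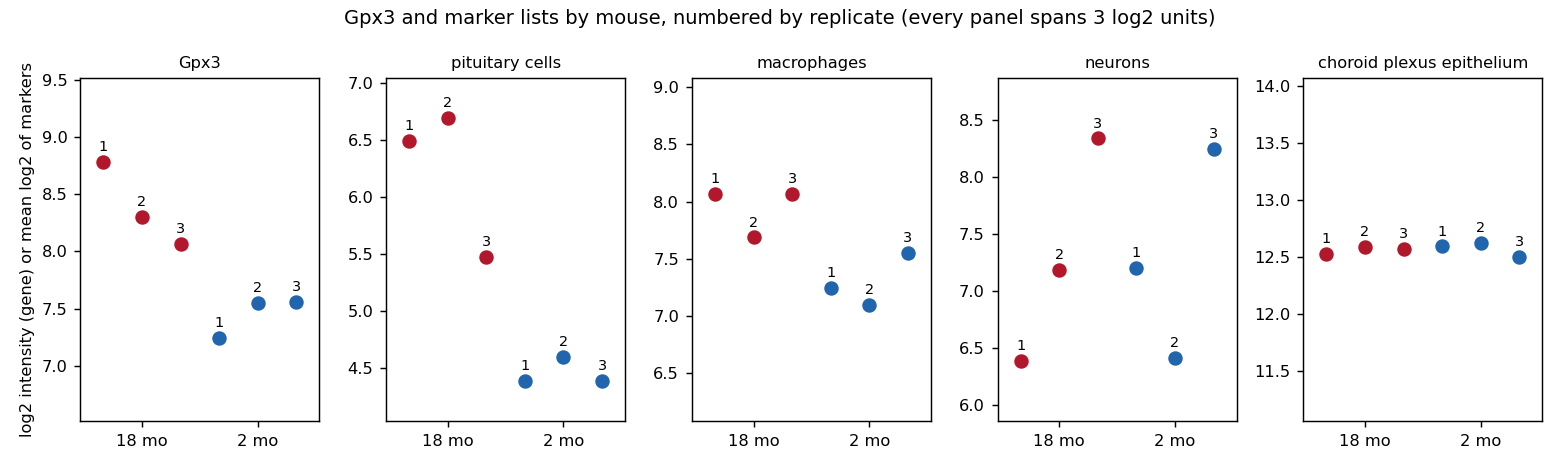
Log2 intensity of Gpx3 and the mean log2 intensity of 4 marker lists in each mouse, numbered by replicate, with 18 months left of 2 months. Gpx3, the pituitary markers and the macrophage markers each separate the ages. The neuron markers vary mainly within an age, and the epithelial mean is nearly level, with overlapping ages.

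Gpx8, a peroxidase of the endoplasmic reticulum membrane, was the other gene whose ages did not overlap, in the opposite direction. It had 11.83, 11.77 and 11.50 at 18 months against 11.97, 12.25 and 12.03 at 2 months. The gap between the highest 18-month mouse and the lowest 2-month mouse was narrow beside the spread within either age. The log2 difference was -0.38 (SE 0.18, 95% interval -0.81 to 0.04), or 0.767-fold (limma, unadjusted p = 0.0717, adjusted p = 0.742). Over the alternatives it ranged from -0.45 to -0.28. The ordinary 2-sample test put its unadjusted p at 0.0422 (adjusted p = 0.747). Markers of multiciliated and ependymal cells had mean log2 intensities that were separate in the same direction. These were 8.23, 8.20 and 8.33 at 18 months against 8.63, 8.48 and 8.83 at 2 months. Of the 8 tested, 0 were above 0, with a median difference of -0.35, and of the 9 measured only Dnah5 lay below the highest bacterial control. Their summed intensity was 6437 to 8094 at 18 months against 7768 to 10541 at 2 months, with overlap. Their part in the Gpx8 difference was not tested. The summed intensity of the epithelial markers was also lower at 18 months, while their mean log2 intensities overlapped. Of the 10 epithelial markers tested, 3 were above 0 and 7 below. Aqp1 differed by 0.64 (SE 0.24), with ages separate and 18 months above. The part of epithelial RNA in the Gpx8 difference was not tested either.

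The promoters of both genes are given because these were the genes whose ages were separate. They run from 250 bases before the gene's start to 50 bases after it, 5′ to 3′ on the gene's strand, from RefSeq on GRCm38.p6. Capitals mark every match, on either strand, to the short motifs searched. The motifs were the antioxidant response element core TGACNNNGC bound by Nrf2, the hypoxia response element core as ACGTG and as GCGTG, and the GC box GGGCGG.
Gpx3, chr11:54902604-54902903, plus strand: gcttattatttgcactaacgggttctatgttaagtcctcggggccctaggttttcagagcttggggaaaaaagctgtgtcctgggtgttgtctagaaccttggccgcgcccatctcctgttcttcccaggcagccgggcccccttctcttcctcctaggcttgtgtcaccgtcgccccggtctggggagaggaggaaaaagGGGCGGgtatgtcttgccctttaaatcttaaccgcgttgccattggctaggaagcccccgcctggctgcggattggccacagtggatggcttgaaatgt
Gpx8, chr13:113046339-113046638, minus strand: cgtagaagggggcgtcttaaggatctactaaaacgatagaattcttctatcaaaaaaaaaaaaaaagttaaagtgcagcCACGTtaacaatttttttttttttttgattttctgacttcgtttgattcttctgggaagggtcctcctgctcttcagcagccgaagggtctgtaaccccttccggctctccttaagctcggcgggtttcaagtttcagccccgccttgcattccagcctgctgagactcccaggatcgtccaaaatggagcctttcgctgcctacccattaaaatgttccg
The Gpx3 window held 1 match, a GC box from position -49 to -44 counted with the first base of the gene as 0, and GC boxes were found in 35.7% of all promoters of this length. The Gpx8 window held 1 match, ACGTG on the opposite strand from -171 to -167, a motif found in 19.6% of all promoters. No 2 matches overlapped. The antioxidant response element core was in neither window, and in 12.4% of all promoters. Among the 12 promoter windows that RefSeq gave for 9 of the 10 listed genes, it was in 1, that of Prdx1, which was not measured here. These matches describe the letters and not binding.

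The other selenium-dependent enzymes were nearly level. Gpx4, which reduces lipid hydroperoxides in membranes and holds back ferroptosis, had 12.64, 12.61 and 12.52 at 18 months against 12.50, 12.54 and 12.61 at 2 months. The ages overlapped, and all 6 mice lay within a 1.10-fold range. The log2 difference was 0.04 (SE 0.15), or 1.03-fold with a 95% interval of 0.799 to 1.32 (limma, adjusted p = 0.970). Its other probe set gave 11.21, 11.09 and 10.92 at 18 months against 10.87, 10.92 and 11.03 at 2 months, a difference of 0.13 (SE 0.17), and also overlapped.

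Gpx1, the abundant glutathione peroxidase of cytosol and mitochondria, had 11.63, 11.70 and 11.41 at 18 months against 11.35, 11.96 and 11.67 at 2 months. The lowest and the highest value both belonged to 2-month mice. The log2 difference was -0.08 (SE 0.21), or 0.945-fold with an interval of 0.663 to 1.35 (limma, adjusted p = 0.953). Its sign depended on single mice, with -0.24 without 2-month replicate 1, 0.069 without 2-month replicate 2 and 0.0040 without 18-month replicate 3. Red cells are rich in Gpx1 and in Prdx2, and their markers overlapped between the ages. The summed intensity of the 5 erythroid markers measured was 6801 to 8937 at 18 months against 7281 to 10396 at 2 months, with 2 of the 4 tested above 0. Hba-a1 lay below the highest bacterial control, whereas other globin genes were bright. Hba-a2 averaged 10.93 at 18 months and 10.77 at 2 months, and Hbb-b2 12.37 and 12.59. Alas2, the first enzyme of heme synthesis in red cells, averaged 8.95 ± 0.46 at 18 months and 8.71 ± 0.61 at 2 months (SD, n = 3 each).

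With Gpx8, the enzymes of the endoplasmic reticulum were Gpx7 and Prdx4. All 3 differences were below 0 without passing the threshold, where 50.4% of all genes tested were above 0. The signs for Gpx7 and Prdx4 depended on single mice. Gpx7, which can pass oxidising equivalents from peroxide to protein disulfide isomerase, had 6.38, 7.18 and 6.74 at 18 months against 6.90, 7.21 and 6.75 at 2 months. The ranges of the ages overlapped widely. Gpx7 gave the widest standard error of the 7 genes, with a log2 difference of -0.18 (SE 0.25), or 0.881-fold with an interval of 0.577 to 1.34 (limma, adjusted p = 0.909). Without 18-month replicate 1 the difference was 0.0094, and without 18-month replicate 2 it was -0.39.

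Prdx4, the peroxiredoxin of the endoplasmic reticulum, had 4 probe sets, of which 3 were bright enough to test. The brightest gave 10.39, 10.59 and 10.05 at 18 months against 10.28, 10.63 and 10.44 at 2 months, with overlap. Its log2 difference was -0.10 (SE 0.21), or 0.930-fold with an interval of 0.660 to 1.31 (limma, adjusted p = 0.935). It was 0.040 without 18-month replicate 3, the lowest array, and -0.23 without 18-month replicate 2, the highest at that age. The other bright probe sets gave 0.0080 (SE 0.19) and -0.10 (SE 0.21). The last lay at 2.99 ± 0.36 at 18 months and 2.92 ± 0.64 at 2 months (SD, n = 3 each), below the highest bacterial control.

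Prdx2, a cytosolic peroxiredoxin, had 2 probe sets whose differences had opposite signs. The brighter probe set gave 11.95, 11.96 and 11.74 at 18 months against 11.93, 11.66 and 11.84 at 2 months. These ages overlapped, with a log2 difference of 0.07 (SE 0.17), or 1.05-fold with an interval of 0.796 to 1.39 (limma, adjusted p = 0.946). The dimmer probe set gave 7.54, 7.38 and 7.82 at 18 months against 8.01, 7.86 and 7.87 at 2 months. Here all 18-month mice lay below all 2-month mice, with a difference of -0.33 (SE 0.19; limma over all probe sets, adjusted p = 0.813). With the mean of both probe sets the gene's difference was -0.13. Within a mouse, the dimmer minus the brighter probe set was -4.30 ± 0.34 at 18 months and -3.89 ± 0.08 at 2 months (SD, n = 3 each; exact permutation p = 0.2, two-sided). Over the 4 such pairs of probe sets compared for Gpx4, Prdx2 and Prdx4, the adjusted p was 0.4 or more, and 3 mice against 3 allow no p below 0.1.

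**Figure D3:**
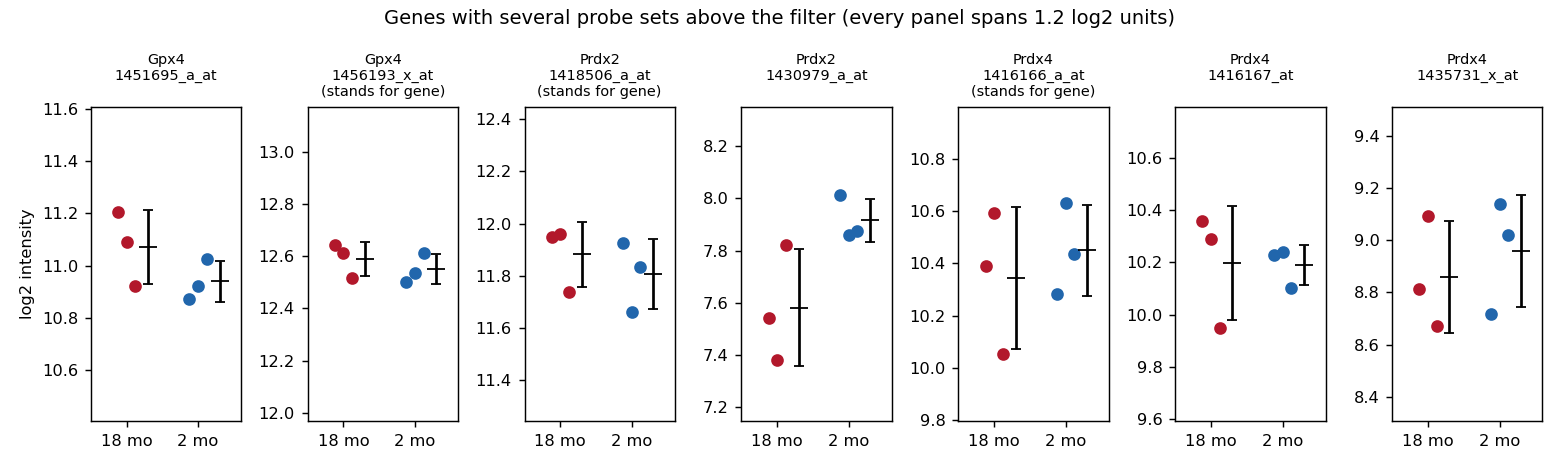
Log2 intensity of each probe set above the filter for Gpx4, Prdx2 and Prdx4, 1 point per mouse, with 18 months left of 2 months; the bar beside the points gives the mean and SD of 3 mice. The ages are separate in the dimmer Prdx2 probe set and overlap in the other 6.

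At either age 1 mouse stood low for most of the genes. In 18-month replicate 3, all 7 lay below the mean of their age and 6 were the lowest of the 3 mice, Gpx7 being the exception. The median deviation of the 7 genes from the 18-month mean in that mouse was -0.17, against -0.019 over all genes tested. In 2-month replicate 1, 6 of the 7 lay below the mean of their age and 5 were the lowest, with a median deviation of -0.11 against -0.005 over all genes tested. Both mice were singled out for these low values, and the same counts over all genes tested were not made. The 18-month mouse had the most neuron signal of its age, with a mean log2 intensity of neuron markers of 8.34 against 6.39 and 7.19 in the other 18-month mice. In 2-month replicate 1 that mean was 7.21, against 6.41 in replicate 2 and 8.25 in replicate 3. In 2-month replicate 3, 3 of the 7 genes lay below the mean of their age. Brain tissue's part in the low values was not tested. Without the array of each age richest in neuron markers, a setting chosen after seeing the data, the log2 difference was 1.15 for Gpx3 and -0.31 for Gpx8.

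**Figure D4:**
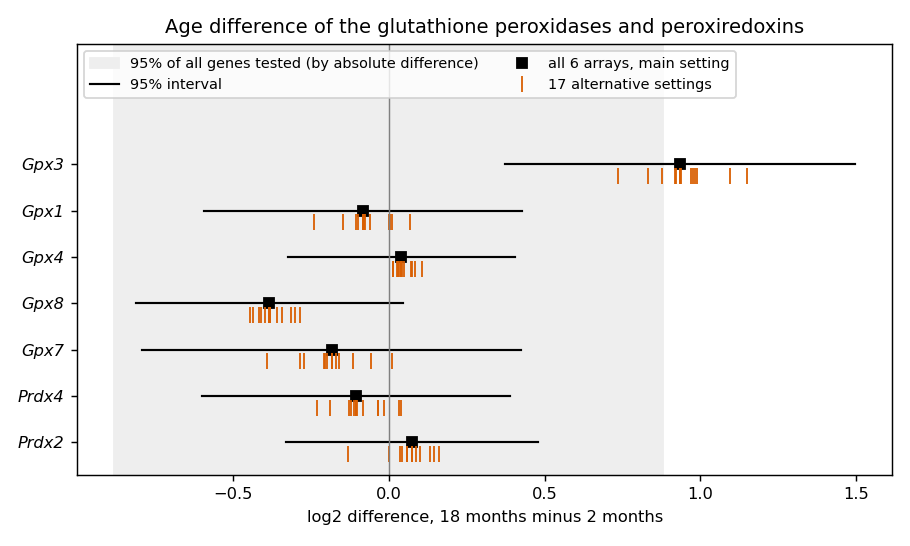
Log2 difference, 18 months minus 2 months, for the 7 measured genes; squares give the value from 6 arrays, lines its 95% interval and orange ticks the 17 alternative settings. The grey band holds 95% of all genes tested by absolute difference (up to 0.881), and Gpx3 lies beyond it.

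Among genes outside the named set, the pattern over the 6 arrays most like that of Gpx3 belonged to Heatr6, with a Pearson correlation of 0.990 as a description. Heatr6 had 7.93 ± 0.34 at 18 months and 7.09 ± 0.15 at 2 months (SD, n = 3 each). For the other genes the closest patterns were those of Tdp1 for Gpx1, Msx2 for Gpx4, Pctp for Gpx7, Ivl for Gpx8, Yipf6 for Prdx2 and Zcrb1 for Prdx4, with correlations from 0.984 to 0.997. Each was picked as the highest over all genes tested and shares the 6 arrays with its partner.

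Family members outside the named 10 gave like results. Prdx3, the mitochondrial peroxiredoxin, had 10.09, 9.69 and 9.63 at 18 months against 9.43, 9.66 and 9.56 at 2 months, a difference of 0.25 (SE 0.19; limma, adjusted p = 0.833), or 0.11 without 18-month replicate 1. Gpx2, the glutathione peroxidase of the gut lining, differed by -0.12 (SE 0.15), and Gpx5 and Gpx6, at 3.05 and 3.25 over all arrays, were below the highest bacterial control.

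The genes that recharge these enzymes did not pass the threshold either. Of 13 thioredoxin system genes tested, 8 were above 0 and 5 below, with a median of 0.09. By limma, 1 gene had an unadjusted p under 0.05, where the background was 7.05%. That gene was Srxn1, which encodes sulfiredoxin, the enzyme that restores overoxidised peroxiredoxins. It had 8.35, 8.48 and 8.64 at 18 months against 7.94, 8.08 and 8.12 at 2 months. The ages were separate, with a log2 difference of 0.44 (SE 0.17; limma, adjusted p = 0.682), and 0.20 when its probe sets were averaged. Txnip, which binds and inhibits thioredoxin, differed by -0.68 (SE 0.30; limma, adjusted p = 0.719), or -0.37 without 2-month replicate 3.

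Of 12 glutathione synthesis and recycling genes tested, 6 were above and 6 below 0, with a median of -0.10. Gsr, the reductase that regenerates glutathione for the peroxidases, had 9.45, 9.56 and 9.40 at 18 months against 9.67, 9.95 and 10.45 at 2 months. The 18-month mice were tightly grouped below a wide 2-month range, and the difference was -0.55 (SE 0.23; limma, adjusted p = 0.710), or -0.34 without 2-month replicate 3. The glutaredoxin gene Glrx differed by -0.83 (SE 0.33; limma, adjusted p = 0.706), and its ages overlapped. When its probe sets were averaged it gave -0.45. Of 16 glutathione transferase genes, 8 were above and 8 below 0, with a median of -0.03. Gstk1, a transferase of mitochondria and peroxisomes, differed by -0.93 (SE 0.32), and Mgst3, a membrane-bound family member, by 0.52 (SE 0.21), or 0.23 when its probe sets were averaged.

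Because Gpx1, Gpx3 and Gpx4 need selenium, the genes that handle it were examined too. Of 10 tested, 6 were above 0, with a median of 0.10. By limma, 0 had an unadjusted p under 0.05, where the background was 7.05%. Secisbp2, which lets the ribosome read a stop codon as selenocysteine, differed by 0.98 (SE 0.44) with overlapping ages, and by 0.22 when its probe sets were averaged. Sephs2, which makes the selenium donor, differed by -0.28 (SE 0.25), or -0.087 without 2-month replicate 2, -0.46 without 2-month replicate 1 and -0.16 without 18-month replicate 2. Of 11 genes for other selenoproteins, 6 were above 0, with a median of 0.15. Their ages were separate for 6 of 11, 4 with 18 months above and 2 with 18 months below, where the background was 13.3%. Selenoi had 9.27, 8.99 and 9.13 at 18 months against 8.60, 8.77 and 8.58 at 2 months, a difference of 0.48 (SE 0.17; limma, adjusted p = 0.672). Selenom, of the endoplasmic reticulum, had 10.40, 10.27 and 10.26 at 18 months against 9.65, 9.87 and 10.01 at 2 months, a difference of 0.47 (SE 0.17; limma, adjusted p = 0.682).

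The remaining lists had medians between -0.07 and 0.16. Superoxide dismutases, catalase and methionine sulfoxide reductases gave a median of 0.16 (9 tested, 6 above 0), with Msrb3 at -0.36 (SE 0.19) and Msra at 0.38 (SE 0.23). Without 18-month replicate 1 these were -0.20 and 0.23, and without 2-month replicate 1 Msra gave 0.25. Nrf2 and its targets gave -0.07 (15 tested, 7 above 0), led by Srxn1 and by Pgd of the pentose phosphate pathway at 0.55 (SE 0.21). Genes of disulfide formation in the endoplasmic reticulum gave -0.05 (11 tested, 5 above 0), with Erp44, which retains proteins in the early secretory pathway, at -0.46 (SE 0.24) and the disulfide isomerase gene P4hb at 0.15 (SE 0.17). Without 18-month replicate 3 these were -0.30 and 0.073, while Erp44 gave -0.28 without 2-month replicate 2 and P4hb 0.085 without 2-month replicate 1. Oxidases that make hydrogen peroxide gave 0.05 (5 tested, 3 above 0), with Cybb of the phagocyte oxidase at 1.19 (SE 0.38). Cybb averaged 6.09 at 18 months and 4.90 at 2 months. The 2-month mean lay under the level needed for testing (4.92), so Cybb was tested only through its 18-month level. Maoa differed by -0.72 (SE 0.50), or -0.16 without 2-month replicate 3 and -1.15 without 2-month replicate 2. The median over all genes tested was 0.0032.

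**Figure D5:**
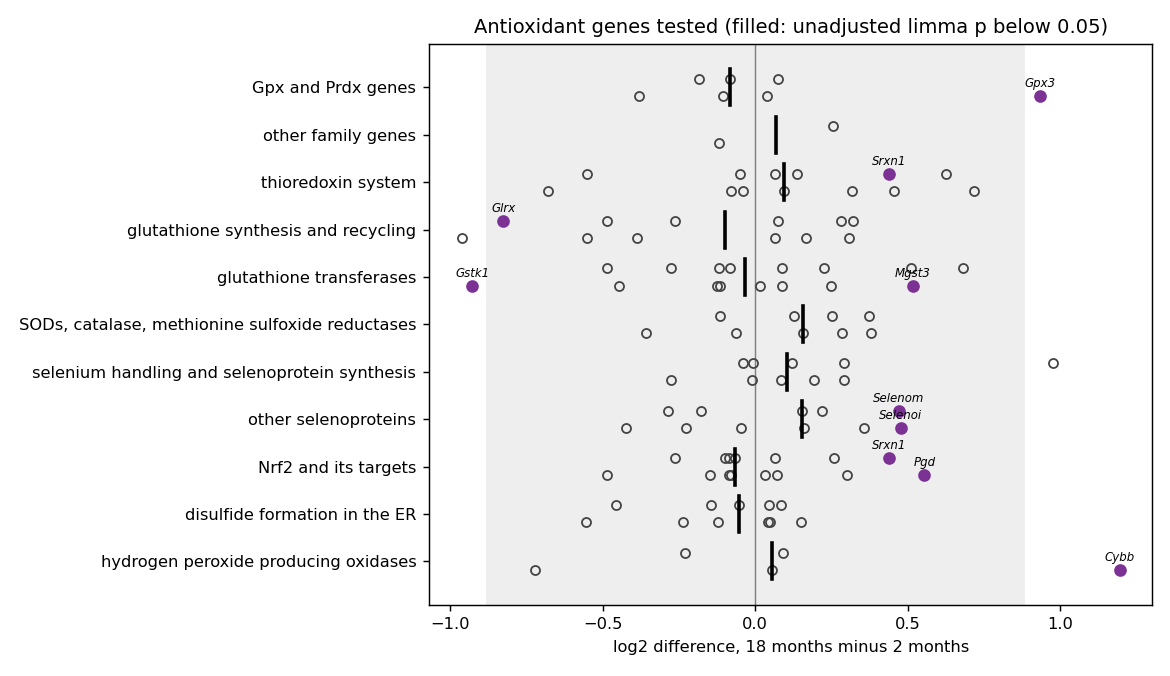
Log2 difference, 18 months minus 2 months, of every tested gene in the named set and in 10 related lists; filled points have an unadjusted limma p under 0.05, vertical bars are list medians and the grey band holds 95% of all genes tested by absolute difference. Gpx3 is the only filled point among the named genes, and the list medians lie between -0.10 and 0.16.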

How the data were processed

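RNA extracted with the miRNeasy kit was amplified by a Nugen Pico cDNA protocol, per the labels' protocols. The values deposited by the authors were normalized intensities of 45101 probe sets, made with RMA per the submitters' processing notes, with no version given. The deposited intensities ran from 2.47 to 26820.7, a linear scale, so their log2 was taken. RMA shares information between arrays, and amplification can distort dim transcripts. Gene names came from the platform annotation. For each gene the brightest probe set was used and tested if its mean reached the 40th percentile of non-control probe sets (log2 4.92), which left 12681 genes. The test was limma's moderated test (limma 3.58.1, R 4.3.3; 18 months minus 2 months, two-sided, no covariates), with Benjamini-Hochberg adjustment over all genes tested and a threshold of 0.05. The fit was tested on simulated data. With 3 mice per age, the number of arrays limits the precision. Members, gene lists and tests were chosen with earlier results of these data known. The text names all 10 members, up to 2 genes with the smallest p of each related list, the gene most like each member, and tissue checks, of which 1 is not reported here. Marker lists covered 10 cell types. Alternatives changed the filter, the probe set, the scaling, the weights, the covariates, the test and the arrays used.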

Additional observations from a re-analysis of the deposited data

How the results depend on the processing

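The named genes other than Gh stayed on the same side of the threshold in every alternative run, and Gh passed it in 5. Gh was bright enough to test only through its 18-month level. No gene passed in the main setting or with no filter, quantile normalization, log2(value + 16), each probe set on its own, the ordinary 2-sample test, or without the array of each age richest in neuron markers; without single mice the counts were 0 to 0 in either direction. The count higher at 18 months was 3 with a 60th percentile filter, 5 with the mean of all probe sets, 4 with arrays centred on their medians, 3 with array weights and 1 with the neuron marker covariate, and the count lower was 1 with the filter, the centring and the weights. None of the 7 glutathione peroxidases and peroxiredoxins was among them. Signs turned for small differences, and the cause was not tested. Gpx1 gave 0.0017 with array weights and 0.010 without the arrays richest in neuron markers, where Prdx4 gave 0.034, Kl -0.019 and Zcrb1 0.0013. With the mean of all probe sets Prdx2 gave -0.13 and Zcrb1 0.25. Ttr gave 0 under quantile normalization. Leaving out single mice gave -0.24 to 0.069 for Gpx1, -0.39 to 0.0094 for Gpx7, -0.23 to 0.040 for Prdx4, -0.0030 to 0.11 for Kl, -0.025 to 0.59 for Alas2, -0.25 to 0.78 for Snap25 and -0.63 to 0.077 for Tdp1. Among other values that moved by over 1.5 times were those of Glrx (-1.29 to -0.45), Gsr (-0.73 to -0.30), Txnip (-0.91 to -0.37), Mgst3 (0.23 to 0.67), Secisbp2 (0.22 to 1.38), Sephs2 (-0.46 to -0.087), Srxn1 (0.20 to 0.51), Prdx3 (0.11 to 0.35), Msrb3 (-0.44 to -0.20), Msra (0.23 to 0.56), Erp44 (-0.55 to -0.28), P4hb (0.073 to 0.21), Cybb (0.59 to 1.45), Maoa (-1.15 to -0.16) and Heatr6 (0.32 to 1.00). With the replicate number as a block, 0 genes were higher and 0 lower and Gpx3 had an adjusted p of 0.649 by limma. Same-numbered arrays deviated together with correlations of -0.015, 0.019 and 0.168, so the numbers were not taken as pairs. Genes below the filter, and members with no probe set of their own, were not tested.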
